A study of Xenopus laevis with 16 samples.

Results

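Arginase, glycine amidinotransferase (Gatm), histidine ammonia-lyase (Hal) and a probe that the study's list pairs with mouse Pdk2 were among the transcripts with the strongest loss in POUV-depleted Xenopus laevis embryos. They are 4 of the 21495 probes of the array, with the gene names arg1-prov (probe A_10_P002420), MGC53198 (A_10_P003181, described in the array files as similar to glycine amidinotransferase), hal-prov (A_10_P006553) and MGC68579 (A_10_P003756, described there only as a hypothetical protein). The array files and the RefSeq gene table give MGC68579 no gene name, and it is called by its array name here. The probes were chosen by their log2 difference between PVD2 and control arrays, that is for strong loss under the PVD2 morpholino mixture, so the size of that loss is given as a description without a test. Tests are given for the stage and tissue course in controls, which the choice was not made on, although the control arrays are one side of the differences that chose the probes. The difference of the loss between stages and between tissues is built from those same differences and is given as a description with its interval.

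The study compared embryos injected with a control morpholino with embryos injected with PVD2, a mixture of morpholinos against the POUV genes Xlpou25, Xlpou60 and Xlpou91, the Xenopus relatives of mammalian Oct4. Each blastomere of the 2-cell embryo received 60 ng of morpholino, and RNA was taken at stage 9 (late blastula) and stage 10 (early gastrula). A sample was the RNA of 3 whole embryos, or of 25 animal caps, the ectoderm explants cut at stage 8 and cultured on their own until stage 9 or 10. This gives 8 groups: control and PVD2 whole embryos at both stages, and control and PVD2 caps at both stages, each with 2 replicates. All groups were injected, so the controls carry a morpholino too. A morpholino that blocks translation leaves the mRNA in place, so array levels of the POUV mRNAs do not measure the degree of depletion.

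The 4 enzymes sit at separate points of metabolism. Arginase splits arginine into urea and ornithine and closes the urea cycle, and ornithine is also the start of polyamine synthesis. Gatm moves the amidino group of arginine onto glycine and so opens creatine synthesis, which Gamt completes. Hal removes ammonia from histidine and opens the breakdown of that amino acid, and in mammals it is known from liver and skin. The Pdk kinases phosphorylate the pyruvate dehydrogenase complex and hold back the flow of pyruvate into the citrate cycle.

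Each sample was labelled with Cy3 and hybridized with a Cy5-labelled reference, whole embryo RNA pooled over 11 stages, and the values below are log2 ratios of sample over that reference. A value of 0 means the level of the pool, and levels of different probes are not compared. Values from the scanner were at hand for 15 arrays. PVD2 caps at stage 10 had 1 of these, and their replicate 2 is known only from the authors' processed values. Per array 49.95% to 63.6% of probes stood well above background in Cy3. A slide held a single tissue and replicate number, with its control and PVD2 arrays side by side, and 4 slides were used in all. The order on a slide was fixed, with control and PVD2 of stage 9 at positions 1 and 2 and those of stage 10 at 3 and 4. An effect of position therefore cannot be told apart from those of morpholino and stage. The caps carried their label, in that endoderm and mesoderm markers were low in control caps against control whole embryos (limma, FDR 0.05). Of 15 endoderm and vegetal marker probes 13 were called lower in caps at stage 9 and 15 at stage 10. Of 15 mesoderm and organizer probes 10 and 11 were called lower, and of 9 ectoderm probes 0 and 1. Over all probes 7.71% and 5.28% were called lower. Of the ectoderm probes 0 were called higher at either stage, with medians of 0.22 and 0.098, against 5.16% and 5.11% of all probes. All 4 enzyme probes were well above background on all 15 arrays, with no saturated and no outlier spot, and their 2 spots differed by a median of 0.04 to 0.09 on the log2 scale.

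Arginase was higher at stage 10 than at stage 9 in controls and far lower under PVD2 in every comparison. In control whole embryos its log2 ratio was −2.13 and −2.90 at stage 9 and 0.28 and −0.02 at stage 10. In PVD2 whole embryos it was −5.01 and −4.74 at stage 9 and −2.84 and −3.94 at stage 10. At stage 10 one PVD2 sample lay within the range of the stage 9 controls and the other below it, and at both stages the 2 PVD2 samples lay below both controls. In control caps arginase was at −2.07 and −2.33 at stage 9 and at 0.13 and −0.89 at stage 10. In PVD2 caps it was at −4.55 and −4.80 at stage 9, and the 1 array at stage 10 read −3.63. The PVD2 cap sample of stage 10 also lay below both control caps of stage 9, with a log2 difference of −1.43 ± 0.51 (SE of the fit).

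The loss of arginase was −2.36 ± 0.42 in whole embryos at stage 9 (log2 difference ± SE, PVD2 minus control) and −3.52 ± 0.42 at stage 10. In caps it was −2.48 ± 0.42 at stage 9 and −3.25 ± 0.51 at stage 10. The mean over the 4 comparisons was −2.90 ± 0.22, which leaves 13.4% of the control level. Among all probes with a value this was the lowest difference of all in whole embryos at stage 10 and the second lowest in the mean. Over the whole array 0.989% of 21445 probes were called lower in the mean of the 4 comparisons and 0.168% higher (limma, FDR 0.05). These arrays measured bulk RNA, in which fewer cells of a type and less RNA per cell cannot be told apart.

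Gatm, which also uses arginine, had a similar course. Its log2 ratio in control whole embryos was −3.72 and −4.53 at stage 9 and −0.74 and −1.28 at stage 10. In PVD2 whole embryos it was −6.80 and −6.12 at stage 9 and −3.40 and −4.56 at stage 10. The 2 PVD2 samples of stage 10 lay just above and just below the stage 9 controls, and below both controls of their own stage. Control caps were at −3.75 and −4.42 at stage 9 and at −1.76 and −2.66 at stage 10. PVD2 caps were at −5.57 and −5.40 at stage 9 and at −4.92 on the 1 array of stage 10. Here too both control caps lay above every PVD2 cap sample of the same stage.

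The loss of Gatm was −2.33 ± 0.47 in whole embryos at stage 9 and −2.97 ± 0.47 at stage 10. In caps it was −1.40 ± 0.47 at stage 9, the smallest of its 4 losses, and −2.71 ± 0.58 at stage 10. The mean was −2.35 ± 0.25, or 19.6% of the control level. Arginase and Gatm in PVD2 whole embryos at stage 9 had net Cy3 signals of only 47.8 to 70.2 units, close to the offset of 50 that was added to every spot and that draws such ratios towards 0. In the Feature Extraction log ratio, which carries no such offset, the arginase loss in those embryos read −2.87. Over all processing settings that loss ran from −2.87 to −1.83.

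**Figure D1:**
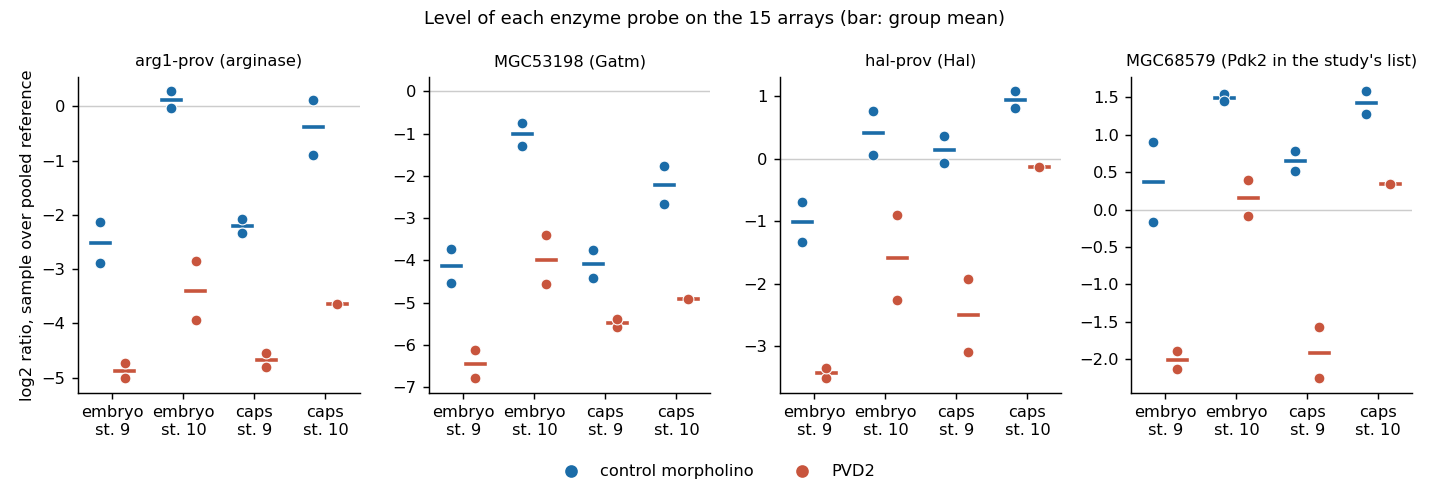
Log2 ratio of sample over pooled reference (vertical axis, its range set for each panel) of the 4 enzyme probes on the 15 arrays, by tissue and stage, with control morpholino in blue, PVD2 in red and a bar at each group mean. In all 4 panels and all 4 tissue and stage groups every PVD2 array lies below both control arrays of its group. The probes were chosen for loss on these arrays, and the share of all probes with this separation was not counted.

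Hal was also lower under PVD2 in all 4 comparisons. In control whole embryos its log2 ratio was −0.69 and −1.34 at stage 9 and 0.77 and 0.07 at stage 10. In PVD2 whole embryos it was −3.52 and −3.35 at stage 9 and −0.90 and −2.26 at stage 10. The 2 PVD2 samples of stage 10 stood apart by 1.36, the largest gap between replicates among the 4 enzymes, and one of them lay within the range of the stage 9 controls. Control caps were at −0.06 and 0.36 at stage 9 and at 1.08 and 0.82 at stage 10. PVD2 caps were at −1.92 and −3.09 at stage 9 and at −0.13 on the 1 array of stage 10.

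The loss of Hal was −2.42 ± 0.50 in whole embryos at stage 9 and −2.0 ± 0.50 at stage 10. In caps it was −2.65 ± 0.50 at stage 9 and −1.07 ± 0.61 at stage 10. The mean was −2.04 ± 0.26, or 24.4% of the control level. The loss in caps at stage 10, the smallest of the 4, rests on 1 PVD2 array. In the authors' processed values, which add the second replicate, the 2 PVD2 caps of that stage read 13.96 and 12.54 on the log2 scale against 15.16 and 14.81 in controls, and the loss was −1.73.

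MGC68579 was the enzyme probe with the smallest mean loss. In control whole embryos its log2 ratio was 0.90 and −0.16 at stage 9 and 1.54 and 1.46 at stage 10. In PVD2 whole embryos it was −2.13 and −1.89 at stage 9 and 0.40 and −0.08 at stage 10. By stage 10 the PVD2 embryos were within the range of the stage 9 controls and still below the stage 10 controls. Control caps were at 0.51 and 0.78 at stage 9 and at 1.58 and 1.27 at stage 10. PVD2 caps were at −1.57 and −2.26 at stage 9 and at 0.34 on the 1 array of stage 10.

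The loss of MGC68579 was −2.38 ± 0.34 in whole embryos at stage 9 and −1.34 ± 0.34 at stage 10. In caps it was −2.56 ± 0.34 and −1.09 ± 0.42. The mean was −1.84 ± 0.18, or 27.9% of the control level. Between PVD2 and control arrays of the same slide all 7 pairs were lower for each of the 4 probes. This was so for 5.12% of the 21316 probes with a value in all pairs. The 4 probes were chosen for loss between these same arrays, so their pairs are a description and the share is no test of them. The within-slide differences ran from −1.84 to −3.92 for arginase, from −0.98 to −3.27 for Gatm, from −1.21 to −3.44 for Hal and from −1.14 to −3.04 for MGC68579.

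**Figure D2:**
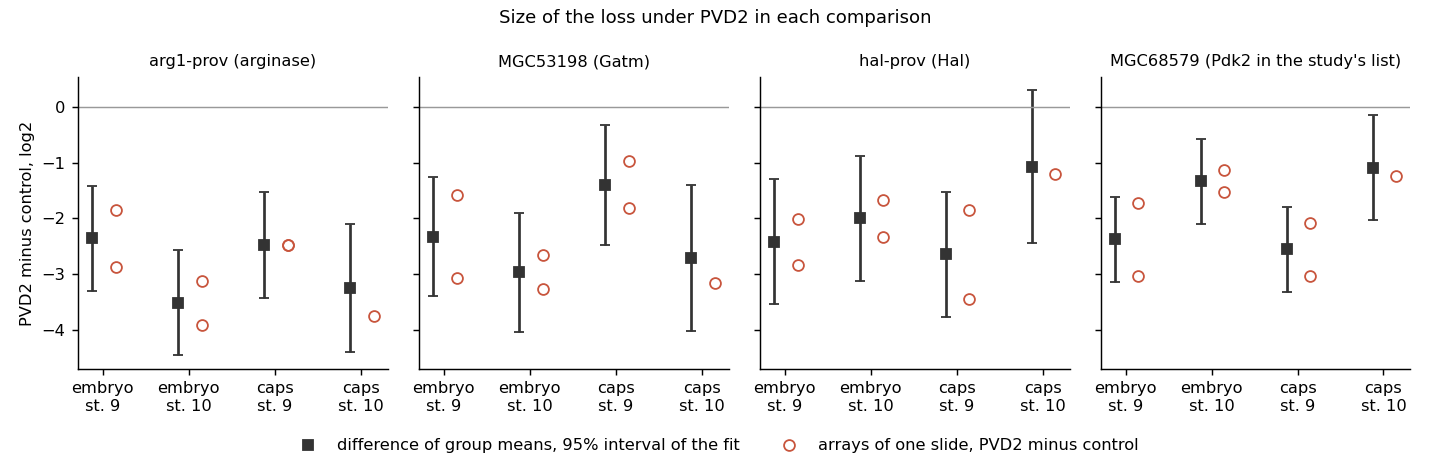
PVD2 minus control on the log2 scale (vertical axis) in the 4 comparisons for each enzyme probe, with squares for the difference of group means with its 95% interval and open circles for the arrays of one slide. Arginase and Gatm lie lowest at stage 10 and Hal and MGC68579 lowest at stage 9, and all 7 slide pairs of each probe lie below 0.

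Most marker probes of the 4 tissue lists also had values below 0 under PVD2, though few passed the test. Of 9 ectoderm marker probes 4 were called lower in the mean of the 4 comparisons, Tcfap2a (AP-2 alpha), lim5/Lhx5, XFD2 (foxi4.2 in RefSeq) and sox3, and 0 higher, against the 0.989% and 0.168% of all probes. The study counts Lhx5 among the POUV targets it drew from these same arrays, so that call is not separate evidence. Of the 9, 7 lay below 0, and Dlx5 and dlx3-A-prov, homeobox factors of the non-neural ectoderm, lay above it at 0.58 ± 0.18 and 0.82 ± 0.20 (limma adjusted p = 0.311 and 0.126). Of 15 mesoderm probes 2 were called lower, FGF-8b and Xbra, and 15 lay below 0. Of 15 endoderm and 4 germ plasm probes 0 were called lower, and 11 and 4 lay below 0. The medians of the mean PVD2 effect were −0.80, −0.25, −0.25 and −0.21 for ectoderm, mesoderm, endoderm and germ plasm, against −0.0075 over all probes. The share of all probes below 0 was not counted, here or in the single comparisons.

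In whole embryos at stage 9 the shift was of like size in 3 of the lists. The mean log2 ratio over the ectoderm probes lay between −0.22 and −0.14 in control and between −0.92 and −0.65 in PVD2 embryos, that over the mesoderm probes between −0.22 and −0.086 against −0.89 and −0.62, and that over the endoderm probes between −0.34 and −0.26 against −1.16 and −0.61. All 15 mesoderm and all 15 endoderm probes were below 0 in that comparison, with medians of −0.41 and −0.49 beside −0.49 for ectoderm. The median over all probes was −0.021. Of the probes of these 3 lists 0 were called in that comparison (limma, FDR 0.05). Over the array 1 of 21488 probes was called lower and 0 higher. At stage 10 the ectoderm mean lay between 0.54 and 0.65 in control against −0.05 and 0.13 in PVD2 embryos, the mesoderm mean between 0.95 and 1.104 against 0.57 and 0.63, and the endoderm mean between 1.38 and 1.48 against 1.30 and 1.47, which overlap. In caps the ectoderm mean lay between −0.23 and 0.15 in control and between −0.31 and −0.27 in PVD2 at stage 9, and between 0.70 and 0.93 in control against 0.40 in PVD2 at stage 10. All 9 ectoderm probes were well above background on every array. In control whole embryos at stage 9 this held for only 9 of 15 mesoderm and 12 of 15 endoderm probes. On neither of those arrays were 4 mesoderm and 2 endoderm probes well above background. The counts and means of these 2 lists at stage 9 include such dim probes. The part of these shifts in the loss of the enzymes was not tested.

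The first question beyond the loss itself was how the enzymes change between late blastula and early gastrula in control embryos. In control whole embryos arginase rose 6.24-fold from stage 9 to stage 10, a log2 difference of 2.64 ± 0.42 (95% interval 1.70 to 3.58, limma adjusted p = 0.011). Gatm rose 8.67-fold, by 3.12 ± 0.47 (2.04 to 4.19, limma adjusted p = 0.00914), which was the 10th largest rise of 21488 probes. Of those probes 1.14% were called higher at stage 10 and 1.55% lower. Hal was higher by 1.43 ± 0.50 (limma adjusted p = 0.247) and MGC68579 by 1.13 ± 0.34 (limma adjusted p = 0.166), and neither passed the threshold. The fits with the slide as a fixed block gave limma adjusted p values of 0.00126 and 0.0021 for arginase and Gatm and of 0.0583 and 0.0522 for Hal and MGC68579. MGC68579 passed with the replicate number as a block (limma adjusted p = 0.0426) and without the first control of stage 9 (difference 1.66, limma adjusted p = 0.0239).

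The rise of arginase and Gatm showed on both slides of whole embryos, by 2.41 and 2.87 for arginase and by 2.98 and 3.25 for Gatm. The control whole embryos of stage 9 had net Cy3 of 551 and 86.4 units for arginase, of 475 and 60.8 units for Gatm, and the lowest shares of probes above background of all arrays, 49.95% and 52.0%. Without the second control of stage 9 the limma adjusted p became 0.0714 for arginase and 0.0609 for Gatm, without the first of stage 10 it became 0.0782 and 0.0715, and without the second of stage 10 the arginase call was lost too (limma adjusted p = 0.0554). The differences themselves stayed between 2.26 and 3.02 for arginase and between 2.71 and 3.52 for Gatm. The Gatm rise was larger with Cy3 alone (3.99) and in the Feature Extraction ratio (3.58).

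In control caps all 4 enzymes were higher at stage 10, but none passed the threshold. Arginase was higher at stage 10 by 1.82 ± 0.42 (95% interval 0.87 to 2.76, limma adjusted p = 0.0792) and Gatm by 1.88 ± 0.47 (0.80 to 2.95, limma adjusted p = 0.118). Both were higher on both slides, by 2.20 and 1.44 for arginase and by 1.99 and 1.76 for Gatm. With the slide as a fixed block both passed, with limma adjusted p values of 0.0102 and 0.0294, as they did with a replicate block (limma adjusted p = 0.00608 and 0.0202). Hal was higher by 0.80 ± 0.50 (limma adjusted p = 0.811) and MGC68579 by 0.78 ± 0.34 (limma adjusted p = 0.538), also on both slides. Of 21465 probes 0.783% were called higher and 1.07% lower in this contrast.

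Under PVD2 the group means of the enzymes were also higher at stage 10, which is described here without a test. In whole embryos the difference was 1.48 ± 0.42 for arginase, 2.48 ± 0.47 for Gatm, 1.85 ± 0.50 for Hal and 2.17 ± 0.34 for MGC68579. In caps it was 1.05 ± 0.51 for arginase, 0.56 ± 0.58 for Gatm, 2.37 ± 0.61 for Hal and 2.25 ± 0.42 for MGC68579, each from 1 array at stage 10. For Gatm the authors' processed values of PVD2 caps were 10.28 and 10.45 at stage 9 and 10.99 and 10.31 at stage 10, so that replicate 2 was lower at stage 10. For MGC68579 the difference on every PVD2 slide was above that on every control slide, 1.81 to 2.53 against 0.49 to 1.62. For arginase it was 0.80 to 2.17 on PVD2 slides and 1.44 to 2.87 on control slides, which overlap. The separation is not particular to MGC68579, as the related probe 3j828-prov, described below, read 1.61 to 1.93 against 0.58 to 1.32. How many of all probes separate in this way was not counted. The values of MGC68579 are also part of the differences that chose it.

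**Figure D3:**
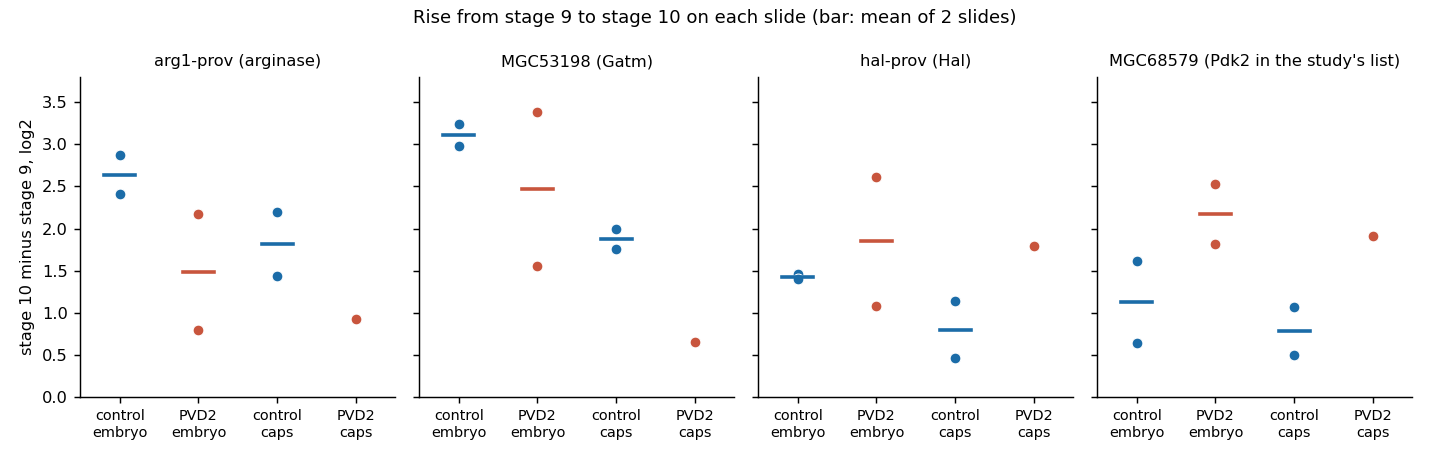
Stage 10 minus stage 9 on the log2 scale (vertical axis) between arrays of one slide, for control (blue) and PVD2 (red) whole embryos and caps, with a bar at the mean where there are 2 slides. All values lie above 0, arginase and Gatm reach 2.87 and 3.25 in control whole embryos, and for MGC68579 each PVD2 slide lies above every control slide. How many of all probes separate in that way was not counted.

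The difference of the loss between stages had opposite signs in the 2 pairs of enzymes, and is described here without a test. It was larger at stage 10 for arginase by −0.96 ± 0.44 (95% interval −1.97 to 0.04) and for Gatm by −0.98 ± 0.50 (−2.11 to 0.16), and smaller at stage 10 for Hal by 1.00 ± 0.53 (−0.19 to 2.19) and for MGC68579 by 1.26 ± 0.36 (0.44 to 2.07). These intervals are not adjusted for the number of probes and are no test, because the same differences chose the probes. Over the whole array 0% of 21445 probes were called in this contrast by limma, and 348 had an unadjusted p under 0.05. In the authors' processed values of 16 arrays the 4 differences were −0.89, −0.94, 0.61 and 1.29, with the same signs. In PVD2 whole embryos at stage 9 net Cy3 was 47.8 to 70.2 units for arginase and Gatm. It was 180 to 286 units for Hal and MGC68579. The added offset draws ratios of such dim spots towards 0, which can shrink the stage 9 loss of arginase and Gatm. In caps those 2 probes read 242 to 694 units under PVD2 at stage 9. Their loss there was also larger at stage 10, from 1 PVD2 array. The share of the offset in the differences was not tested.

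The loss in both tissues was compared in the same way. The loss in caps minus the loss in whole embryos was 0.075 ± 0.44 for arginase (95% interval −0.93 to 1.08), 0.59 ± 0.50 for Gatm (−0.54 to 1.73), 0.35 ± 0.53 for Hal (−0.84 to 1.54) and 0.033 ± 0.36 for MGC68579 (−0.78 to 0.85). All 4 intervals are wide, and they are no test of a difference. Over the whole array 0% of 21445 probes were called by limma, with 674 at an unadjusted p under 0.05.

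The levels in control caps and control whole embryos were compared next. At stage 9 caps minus whole embryos was 0.32 ± 0.42 for arginase, 0.042 ± 0.47 for Gatm, 1.16 ± 0.50 for Hal and 0.28 ± 0.34 for MGC68579. At stage 10 it was −0.51 ± 0.42 for arginase, −1.20 ± 0.47 for Gatm, 0.53 ± 0.50 for Hal and −0.071 ± 0.34 for MGC68579. None of the 8 differences passed the threshold (limma adjusted p = 0.16 to 0.977), against 12.9% of 21471 probes called at stage 9 and 10.4% of 21475 at stage 10. The widest were Hal at stage 9 (95% interval 0.04 to 2.28, limma adjusted p = 0.178) and Gatm at stage 10 (−2.27 to −0.13, limma adjusted p = 0.16). With the replicate number as a block Gatm at stage 10 passed (limma adjusted p = 0.0488). The 2 tissues were scanned on different days, and the effect of the day cannot be told apart from that of the tissue. Whole embryo arrays were also dimmer, with a median net Cy3 of 18.1 to 34.9 units against 61 to 69 in caps. The offset of 50 therefore weighs more on their ratios. With Cy3 alone, which carries the same offset, the stage 9 differences read 0.93 for arginase, 1.29 for Gatm, 1.21 for Hal and −0.27 for MGC68579. In the Feature Extraction log ratio, which carries no such offset, they read 0.58, 0.47, 1.15 and 0.27. The direction of calls over all probes also moved with the normalization, from 1108 higher and 1655 lower at stage 9 to 1732 and 1465 with median centring in place of loess, and from 1098 and 1133 to 2441 and 1372 at stage 10, and median centring put the median of all probes at −0.12 and −0.14. In caps the split of the stage contrast went from 168 higher and 230 lower to 100 and 77 under the same setting.

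Of 5 probes for direct relatives of the enzymes 1 was called lower in the mean PVD2 effect, beside 0.989% of all 21445 probes. The array held 2 further arginase probes, MGC53991 (arginase 2) and LOC397788 (described as arginase 3, placed with arg2 in RefSeq). Their mean PVD2 effects were −0.11 ± 0.23 and −0.19 ± 0.065 (limma adjusted p = 0.964 and 0.358). Both were dim in whole embryos. The group means of net Cy3 there were 22.6 to 36.2 units for LOC397788, below the added offset of 50. For MGC53991 the mean was 48.7 units in control whole embryos at stage 9. The offset draws such ratios towards 0, so these values cannot show that the 2 probes kept their level in whole embryos. gamt-prov, the enzyme that finishes creatine synthesis, was at 0.00078 ± 0.34 (95% interval −0.77 to 0.77, limma adjusted p = 1). It was dim too, with a mean net Cy3 of 81.6 units in control whole embryos at stage 9 and 105 at stage 10. LOC494745, which RefSeq names pdk1, was at 0.079 ± 0.19 (limma adjusted p = 0.971). The called one was 3j828-prov, described in the array files as pyruvate dehydrogenase kinase isoenzyme 2 and listed by RefSeq under pdk4.

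3j828-prov had log2 ratios of −0.07 and −0.93 in control whole embryos at stage 9 and of −2.24 and −2.43 under PVD2. At stage 10 the controls read 0.50 and 0.38 and the PVD2 embryos −0.57 and −0.81. Both PVD2 samples lay below both controls at either stage. In control caps it was at −0.63 and −0.17 at stage 9 and 0.46 and 0.43 at stage 10, and in PVD2 caps at −2.65 and −2.65, then −0.72 on the 1 array of stage 10. Its mean PVD2 effect was −1.59 ± 0.13 (limma adjusted p = 0.000849), lower on 7 of 7 slide pairs. The study's list of POUV-responsive genes holds this probe and was drawn up on these same arrays, so its direction is not independent of that choice.

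The other measured probes of these pathways were counted next. Of 49 probes for arginine and the urea cycle, creatine, polyamines, histidine, pyruvate and glycolysis, 1 was called lower in the mean PVD2 effect, which was 3j828-prov, and 0 higher. That is 2.04% lower, on a count of 1, beside 0.989% of all probes. Their median was −0.049, against −0.0075 over all 21445 probes. By list, 0 of 8 arginine and urea cycle probes, 0 of 3 creatine, 0 of 4 polyamine, 0 of 5 histidine, 1 of 21 pyruvate and 0 of 8 glycolysis probes were called, with medians of −0.10, −0.02, 0.01, 0.02, −0.05 and −0.04. The next lowest values after 3j828-prov were MGC52527 (ornithine decarboxylase, the first enzyme of polyamine synthesis) at −0.49 ± 0.15 (limma adjusted p = 0.304) and cn2-prov (placed with the dipeptidase cndp2) at −0.29 ± 0.067 (limma adjusted p = 0.0985).

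**Figure D4:**
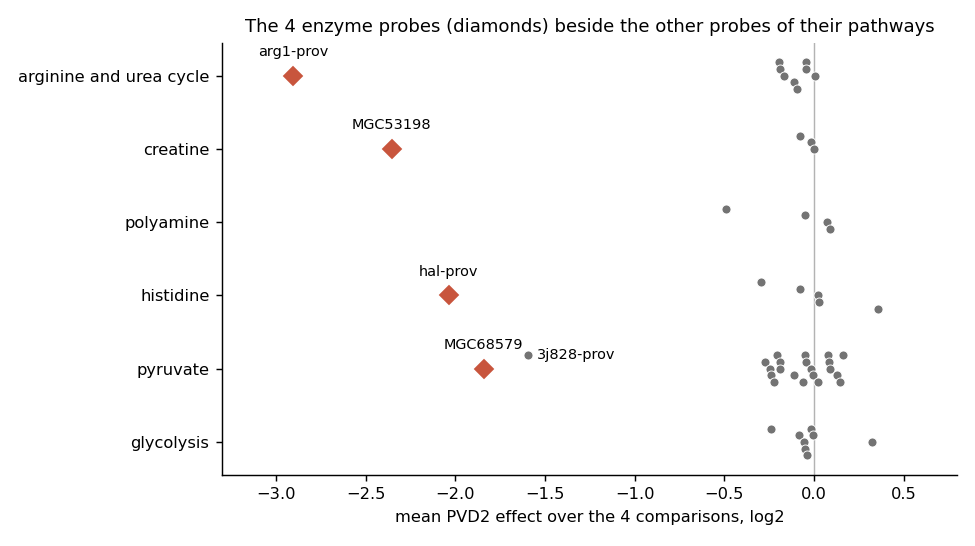
Mean PVD2 effect over the 4 comparisons on the log2 scale (horizontal axis) for the 4 enzyme probes (red diamonds) and the 49 other probes of 6 metabolic lists (grey points, spread vertically for view). The diamonds lie between −2.90 and −1.84, 3j828-prov at −1.59, and the other grey points between −0.49 and 0.35.

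Members of these lists were also called between the control groups. From stage 9 to 10 oat-prov (ornithine aminotransferase, which drains ornithine) was lower in control whole embryos by −0.98 ± 0.097 (limma adjusted p = 0.00119) and in control caps by −0.59 ± 0.097 (limma adjusted p = 0.0193), the opposite direction from arginase. Of the 49 probes 0 were called higher and 1 (2.04%, against 1.55% of all probes) lower with stage in whole embryos, with a median of −0.090 against −0.012 over all probes, and 1 higher and 1 lower in caps (0.783% and 1.07% of all probes), with a median of 0.11 against 0.017. The one higher in caps was MGC52527, by 2.34 ± 0.29 (limma adjusted p = 0.00532). Between caps and whole embryos 4 were higher and 6 lower at stage 9 (8.16% and 12.2%, against 5.16% and 7.71% of all probes, with a median of −0.043 against −0.0070). At stage 10, 7 were higher and 2 lower (14.3% and 4.08%, against 5.11% and 5.28% of all probes, with a median of 0.083 against 0.0054). MGC52527 (2.69 ± 0.29 at stage 10, limma adjusted p = 0.000856) and ckm-prov, a creatine kinase (1.59 ± 0.26, limma adjusted p = 0.00608), were higher in caps, and oat-prov was lower at both stages. For ass-prov, pck1-prov and xaldb, which were also called at stage 9, at least 1 of the groups compared was not well above background, and no fold is given.

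The courses of the enzymes over the 15 arrays were also set against those of 12183 probes well above background on at least 8 arrays, as a description without a test. The arrays share a reference and slides, and the PVD2 loss for which the 4 probes were picked is part of these values, so a high likeness among them and to other lost probes is partly fixed by that choice. Arginase and Gatm were each the closest of all probes to the other (Pearson r = 0.96). Over the 8 control arrays r was 0.98 for arginase and Gatm, 0.92 for arginase and MGC68579 and 0.87 for Gatm and MGC68579. It was 0.83 for Hal and MGC68579, 0.76 for arginase and Hal and 0.64 for Gatm and Hal. The control arrays do not hold the loss, but they are one side of the differences that chose the probes. All 4 probes were higher at the later stage in controls, which alone can raise r. The control values of r were not set against those of other probes, so they show no special likeness. For each enzyme the 5 closest probes with a gene name are given as neighbours, so that places are skipped. Hal was closest to LOC494752 (stx19 in RefSeq, r = 0.94), with lim5/Lhx5, a LIM homeodomain factor, at place 3 and MGC68579 at place 4 of all probes (r = 0.94 for both). MGC68910 and MGC83405 came at places 6 and 7 for Hal (r = 0.91 for both). MGC68579 was closest to 3j828-prov (r = 0.99), with Hal at place 3 (r = 0.94) and prdm1-prov, a zinc finger repressor, at place 4 (r = 0.93). LOC494752 and LOC397976 came at places 5 and 6 for MGC68579 (r = 0.92 for both). For arginase LOC397976, the Iroquois factor irx1, was at place 5 (r = 0.95), MGC83405 at place 6 (r = 0.95), prcc at place 7 (r = 0.95) and Tcfap2a at place 11 (r = 0.92). For Gatm prcc was at place 3 (r = 0.95) and MGC68418 at place 4 (r = 0.94). Saf-A (hnrnpu in RefSeq) and LOC397976 came at places 6 and 7 for Gatm (r = 0.91 for both).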

How the data were processed

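The authors labelled sample RNA with Cy3 and the reference with Cy5 and deposited Feature Extraction output, from which the intensity columns used, mean signal with its median local background, carry no normalization. Feature Extraction 9.5.1.1 had already corrected the deposited log10 ratios for background and dye. They give Cy5 over Cy3, so the sign was reversed. The authors' table of processed values for 16 arrays is on a log10 scale whose centring is not given in the sources used here. Differences between its arrays followed the dye ratio (r 0.962 to 0.989), and it was converted to log2. The intensities were corrected by normexp (offset 50) and loess was applied within each array. On 3 arrays a few spots under dirt, with a net signal more than 50 below 0 (at most 22 of an array), pulled the normexp fit so far down that most ratios shrank towards 0. These spots were left out of fit and values on all arrays, a choice made after seeing the data. Outlier spots and the 1417 control spots were dropped, and a probe is the average of its 2 spots. The model, run in limma 3.58.1 (statmod 1.5.0, R 4.3.3), held 1 mean for each of the 8 groups, and p-values were adjusted over all probes by Benjamini-Hochberg at an FDR of 0.05. Replicates are separate samples by their labels, which name no clutch, so p-values measure the spread between these samples. The 1 array of PVD2 caps at stage 10 was assumed to vary like the others. The procedure was tested on simulated data with noise drawn independently for each array, so that test does not cover arrays that share a slide or replicate number. The members, lists and tests were chosen with earlier results of these data known. Named were the 4 probes, their direct relatives, the 3 lowest pathway probes and up to 6 called ones. Gene names came from the array files and the RefSeq table (Xenopus_laevis_v10.1), which matched 3710 of 21495 probes. Alternatives were other background, normalization, channel, filter, block and moderation settings and single arrays left out in turn.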

Additional observations from a re-analysis of the deposited data

How the results depend on the processing

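The mean loss of the 4 enzymes kept its direction under all alternatives run. Its size stayed within 1 residual SD between arrays of the same group (0.38 to 0.56). That SD is wider than the SE of the mean loss. The probes were chosen for strong loss on these same arrays, so the kept direction was largely fixed by that choice and is no support. Over the processing settings the mean ran from −3.15 to −2.63 for arginase and from −2.57 to −2.01 for Gatm, a shift of more than 1 SE for both. In single comparisons the Gatm loss in whole embryos at stage 9 read −1.56 with scaling and −1.74 with Cy3 alone, against −2.33. The counts over the array moved more. With the normexp fit on all spots, added after seeing the data, 88 probes were called in the mean PVD2 effect in place of 248, with 226 and 145 for stage in control whole embryos and caps and 220 and 578 for tissue at stages 9 and 10. Median centring gave 149, 347 and 177 for the PVD2 mean and both stage contrasts and 3813 for tissue at stage 10. No moderation gave 127, 372 and 197. The authors' values gave 392, 1341 and 237 with 16 arrays, and 1155 and 183 for stage with 15, and 6 for the tissue difference of the loss with 16. The Feature Extraction ratio gave 1359 for stage in whole embryos, and 5 and 2 for the tissue and stage difference of the loss. Cy3 alone gave 997 for stage in whole embryos, 4458 for tissue at stage 9 and 1 for the stage difference, and scaling gave 1 for the latter. With the slide as a fixed block there were 781, 1743 and 1173 calls, and with a random slide block 566, 1256 and 844.

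The replicate numbers are shared between groups. Gaps between the 2 replicates correlated in 9 of 9 pairs of groups within a tissue (r 0.583 to 0.816) and 12 of 12 across tissues (0.5 to 0.73), but with 2 replicates this does not show that the numbers pair samples. Within a tissue the arrays of 1 replicate number also shared a slide. The main fit held no slide block, and the fit with a random slide block put the correlation within a slide at 0.356. The replicate block gave 674, 1529 and 974 calls for the PVD2 mean and both stage contrasts and 4867 and 4372 for tissue. It brought arginase (limma adjusted p = 0.00608) and Gatm (0.0202) in caps, MGC68579 in whole embryos (0.0426) and Gatm between tissues at stage 10 (0.0488) past the threshold.

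The 1 PVD2 cap array of stage 10 could not be left out of the PVD2 mean and of the differences of the loss. Leaving out each other array in turn gave 166 to 419 calls for the PVD2 mean, 274 to 1092 and 78 to 412 for stage, 1142 to 3232 and 840 to 2724 for tissue, and 0 to 14 for either difference of the loss. The highest PVD2 and stage counts in whole embryos, 419 and 1092, came without the first control of stage 9, and MGC68579 then passed for stage (limma adjusted p = 0.0239). Both counts of 14 came without the second. Stage counts in whole embryos were 319 and 274 without the first and second control of stage 10. In caps they were 119 and 83 without the first and second control of stage 9 and 78 and 243 without those of stage 10. For tissue at stage 9 there were 1429 calls without the second whole embryo control and 1525 and 1142 without either control cap sample, and at stage 10 there were 951, 1034 and 840.

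Values near 0 changed sign. The tissue difference of the loss became −0.093 for arginase with scaling, −0.50 with the fit on all spots, −0.046 with the replicate block, −0.051 with the fixed slide block and −0.0037 with the random one. For MGC68579 it became −0.068 with median centring, −0.14 with the fit on all spots, −0.042 with the replicate block, −0.026 with the fixed slide block and −0.0038 with the random one. MGC68579 between tissues read −0.27 at stage 9 with Cy3 alone and 0.33 at stage 10 with median centring. The mean PVD2 effect became −0.038 for LOC494745 with the fit on all spots, 0.092 and 0.015 for MGC53991 and 0.0063 and 0.021 for LOC397788 with Cy3 alone and the authors' 16 arrays. Without single arrays the tissue difference ran from −0.20 to 0.35 for arginase and from −0.23 to 0.30 for MGC68579. At stage 9 the tissue contrast ran from −0.064 to 0.70 for arginase, −0.36 to 0.45 for Gatm and −0.26 to 0.81 for MGC68579, and at stage 10 from −0.22 to 0.081 for MGC68579. The mean effect ran from −0.20 to 0.20 for gamt-prov, −0.017 to 0.18 for LOC494745 and −0.23 to 0.0065 for MGC53991. The causes were not tested. The number of arrays limits the precision, as does the dim Cy3 signal of arginase and Gatm in whole embryos at stage 9.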
